A study of Mus musculus with 20 samples.

Results

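The mouse transcripts uc009qun.1 and uc009ama.1 were followed through polysome fractions and ribosome captures of embryonic stem cells. They were taken by identifier from earlier results of these data. These had placed them among the transcripts that moved most toward heavy polysomes with an siRNA against Rpl10a, a gene for a large-subunit ribosomal protein. The gain of uc009qun.1 in heavy fractions and the fall of uc009ama.1 in light ones were part of that choice. uc009qun.1 and uc009ama.1 are 2 of the 9498 transcripts listed in any table of the series, and both are listed in all 4 tables. The files identify transcripts by UCSC identifier only, and 0 of the 9498 identifiers matched the reference tables used here. Gene names, sequences, positions, roles and a check of cell type markers are therefore not given, and the level of Rpl10a mRNA itself was not analysed here.

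All cells were E14 mouse embryonic stem cells, an established pluripotent line, kept in medium with serum and leukemia inhibitory factor. They received 100 µg/ml cycloheximide, which arrests elongating ribosomes, for 1 min before harvest. For RNA-seq, wild-type cells were transfected with a universal negative control siRNA or with 1 siRNA against Rpl10a, and lysates were split into a heavy and a light pool of gradient fractions. mRNAs bound by 4 or more ribosomes made up the heavy pool. Everything else formed the light pool, namely free ribonucleoproteins, free subunits, single ribosomes and polysomes of 2 to 3 ribosomes. Each siRNA and pool had 2 libraries, 8 in all. Ribo-Seq, which sequences the mRNA stretches shielded by ribosomes, used 3 further lines of these cells, each with 1 tagged allele at the endogenous locus: 3xFLAG-Rpl10a, Rps25-3xFLAG or Rpl22-3xHA. Tag-captured ribosomes (IP, 2 libraries per line) were compared with the whole ribosome pellet of the same line (total, 2 libraries). The labels of the total libraries of the Rpl22-3xHA line also name the anti-HA antibody. No label says that replicates were separate cultures, so their spread may be technical, and each library pools many cells, so that fewer cells of a type and less RNA per cell cannot be told apart.

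An mRNA that is translated efficiently carries many ribosomes at once and sediments into heavy polysomes, while one that initiates rarely, or whose coding sequence is too short to hold many ribosomes, stays in lighter fractions. The distribution between pools thus describes how an mRNA is loaded, and a knockdown can alter it without altering the amount of mRNA. No RNA-seq library here held unfractionated RNA, so whether the amount of either mRNA changed as well was not measured. RPL10A and RPL22 belong to the large ribosomal subunit and RPS25 to the small one. A capture through such a protein reads which mRNAs are held by ribosomes that contain it.

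Libraries of the RNA-seq table summed to between 943664 and 1067209 in the deposited RPM values (reads scaled to library size, not to transcript length). Replicates correlated across transcripts with r between 0.975 and 0.987 on the log2 scale. The Ribo-Seq libraries summed to between 1082511 and 1201737 RPKM (reads scaled to library size and transcript length), with r between 0.973 and 0.995. Read depth is unknown, as the values hold no counts, so no counting interval is given.

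Mean RNA-seq level is here the mean of log2(value + 1) over the 8 libraries, in a unit by name not scaled to length. The first transcript, uc009qun.1, had the highest mean level of all 8084 transcripts in the table. With control siRNA its light-pool libraries held 9846.8 and 10604.8 and its heavy-pool libraries 4595.2 and 4604.1 (deposited RPM values). With Rpl10a siRNA the light-pool libraries held 9016.6 and 10210.9 and the heavy-pool libraries 10050.8 and 12608.3. The control heavy pool alone was low, and the libraries of the other 3 groups lay between 9016.6 and 12608.3. Ordered by mean, the Rpl10a heavy pool came first at 11330 ± 1808 (SD, n = 2 in each group), the control light pool next at 10226 ± 536, then the Rpl10a light pool at 9614 ± 844 and the control heavy pool at 4600 ± 6.29. Neighbouring groups among the first 3 overlapped, while the gap of 5014 to the control heavy pool was larger than any SD.

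In the heavy pool, the libraries with Rpl10a siRNA held 2.46 times the control mean, and between 2.18 and 2.74 times over the 4 possible pairs of libraries. In the fit of the 8 libraries this was a log2 change of 1.29 (SE 0.15, on the log2(value + 1) scale). The groups did not overlap, as for 38.1% of all transcripts in that direction, and because the transcript was chosen on these libraries the change is a description with no test. In the light pool the mean with Rpl10a siRNA was 94.0% of the control mean, the groups overlapped, and the log2 change was −0.09 (SE 0.15). Its shift toward the heavy pool, which is the heavy change minus the light change, came to 1.38 (SE 0.21). Of this, 93.4% came from the heavy pool and 6.57% from the light pool. The light change had a 95% interval of −0.42 to 0.24, so its share is not well determined.

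The heavy-pool gain also changed its rank among the transcripts of a library. With control siRNA, uc009qun.1 ranked 4 and 8 from the highest in the heavy libraries, and with Rpl10a siRNA it ranked 1 in both. In the light libraries its ranks were 5 and 2 with control siRNA and 2 in both with Rpl10a siRNA. It took up 0.447% and 0.431% of the summed values of the control heavy libraries, and 1.07% and 1.26% of those with Rpl10a siRNA. The light libraries gave it between 0.950% and 1.05% with either siRNA.

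The second transcript, uc009ama.1, changed mainly in the light pool. With control siRNA its light-pool libraries held 343.8 and 366.6 and its heavy-pool libraries 57.7 and 57.2 (deposited RPM values). With Rpl10a siRNA the light-pool libraries held 187.3 and 168.2 and the heavy-pool libraries 61.8 and 76.4. The control light pool stood above everything else, the Rpl10a light pool came next, and both heavy pools were low. The means were 355 ± 16.1, 178 ± 13.5, 69.1 ± 10.3 for the Rpl10a heavy pool and 57.5 ± 0.354 for the control heavy pool (SD, n = 2 each). Adjacent groups did not overlap anywhere in this order, but the last gap, 11.7 between the heavy pools, was close to the larger SD of 10.3. Of all transcripts, 29% had a light pool lower with Rpl10a siRNA without overlap, and 38.1% a heavy pool higher. For 29.9% the heavy pool with Rpl10a siRNA lay wholly below its light pool.

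In the light pool, uc009ama.1 with Rpl10a siRNA held 50.0% of its control mean, and between 0.459 and 0.545 times over the pairs of libraries. The log2 change was −0.996 (SE 0.13). Its groups did not overlap, as for 29% of all transcripts in that direction, and again the libraries are those on which it was chosen. In the heavy pool the mean was 1.20 times the control mean, or a log2 change of 0.25 (SE 0.13). Of its shift of 1.25 (SE 0.19), 79.7% came from the light pool and 20.3% from the heavy pool. The heavy change had a 95% interval of −0.05 to 0.55, so its share is not well determined. A similar shift was reached by different routes in the 2 transcripts. For uc009qun.1 it was a relative gain in the heavy pool, and for uc009ama.1 a relative loss from the light pool. Both routes were known when the transcripts were chosen, so they restate the choice.

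**Figure D1:**
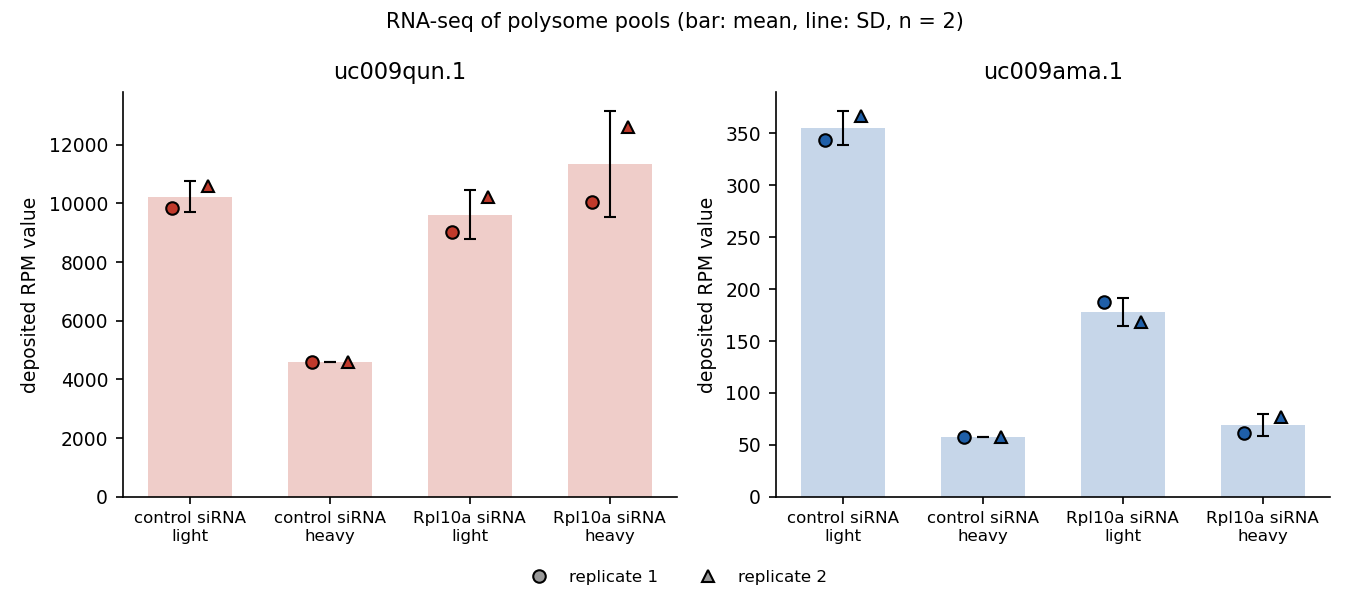
Deposited RPM values of uc009qun.1 (left) and uc009ama.1 (right) in the light and heavy polysome pools with control or Rpl10a siRNA; bars are means, lines SD (n = 2) and symbols libraries, with axes that differ in scale. For uc009qun.1 the control heavy pool stands alone at 4600, and for uc009ama.1 the light pool goes from 355 to 178 while both heavy pools stay at or below 76.4.

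In both transcripts the second heavy library with Rpl10a siRNA was the higher of its pair, at 12608.3 against 10050.8 and at 76.4 against 61.8. These were also the least reproducible group means of either transcript in the RNA-seq table, with an SD of 16.0% and 14.9% of the mean, against 0.137% and 0.615% in the control heavy pool. Without that library the shift of uc009qun.1 was 1.22 and that of uc009ama.1 was 1.10. Without the first heavy library with Rpl10a siRNA they were 1.55 and 1.40.

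The distribution between pools shows what these shifts amounted to. With control siRNA the heavy mean of uc009qun.1 was 45.0% of its light mean, a log2 difference of −1.15 (SE 0.15), and 7.10% of transcripts lay further to the light side. With Rpl10a siRNA the heavy mean was 118% of the light mean, with overlapping libraries and a log2 difference of 0.23 (SE 0.15). The median of all transcripts was −0.04 with control and 0.16 after the knockdown. uc009qun.1 thus went from the light side of the distribution to near its middle.

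For uc009ama.1 the heavy mean was 16.2% of the light mean with control siRNA, a log2 difference of −2.61 (SE 0.13) that was the 35th lowest of 8084. With Rpl10a siRNA it was 38.9%, a log2 difference of −1.36 (SE 0.13), the 262nd lowest. Its libraries of the pools did not overlap with either siRNA, with heavy below light in both. Heavy libraries lay wholly below light ones for 41.5% of all transcripts under control siRNA and for 29.9% under Rpl10a siRNA. It therefore remained a light-pool transcript after the knockdown, with 2.57 times as much signal in the light as in the heavy pool, against 6.18 times with control siRNA. The values of the pools are scaled within each library, so these ratios give relative and not absolute amounts.

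**Figure D2:**
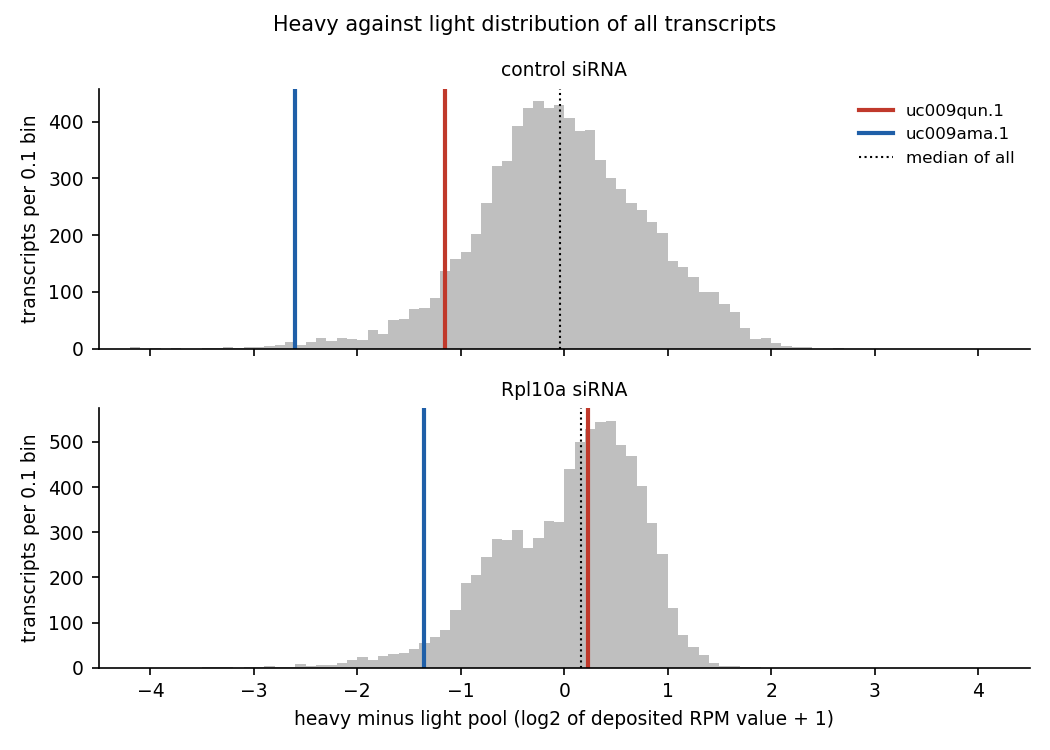
Histograms of the log2 difference between heavy and light pool for all 8084 transcripts with control siRNA (top) and Rpl10a siRNA (bottom), with coloured lines for the 2 transcripts and a dotted line at the median. The line of uc009qun.1 moves from −1.15 to 0.23, next to the median, and that of uc009ama.1 from −2.61 to −1.36, still on the left flank.

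Against all 8084 transcripts, the shifts of uc009qun.1 and uc009ama.1 ranked 2 and 4 from the highest, which restates how they were chosen. The parts of the shift, also known at the choice, ranked differently. The heavy change of uc009qun.1 was the 112th highest, and its light change was near the middle, with 37.0% of transcripts below it. The light change of uc009ama.1 was the 20th lowest, and its heavy change ranked 3090 from the highest. The 111 transcripts with a larger heavy change than uc009qun.1 all had a light change above 0 as well, with a median of 0.85. That of uc009qun.1 was −0.09. As the shift is the heavy minus the light change, its rank of 2 by shift largely fixed this contrast in advance. The contrast therefore restates the choice as well. In all, 186 transcripts (2.30%) had a heavy change of at least 1 with a light change within 0.5 of 0. For 6 (0.0742%) the light change was −1 or lower with a heavy change within 0.5 of 0. The light change of uc009ama.1, −0.996, lay just short of that limit, which was set after the values were seen. Light changes spread less over all transcripts, with 5th and 95th percentiles of −0.586 and 0.567, against −0.702 and 0.987 for heavy changes. Both counts come from the libraries on which the transcripts were chosen.

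Both transcripts fell in the highest quintile of mean RNA-seq level, in which 1617 transcripts had a median heavy change of −0.30, a median light change of 0.03 and a median shift of −0.13. In this quintile the heavy change of uc009qun.1 was the 14th highest and the light change of uc009ama.1 the 6th lowest. Among the 20 transcripts with the highest mean level, a group picked after the values were seen, 15 had a heavy change below 0 and 5 above 0. Their median heavy change was −0.56, the value of uc009qun.1 was the highest, and the next was 0.96. Their median shift was −0.35 and the next highest shift after that of uc009qun.1 was 0.70. The heavy change of uc009qun.1, itself 1 of the 20 and of the 5 above 0, was opposite in sign to 15 of them. Its place there, like the ranks in the quintile, restates the choice on these libraries.

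**Figure D3:**
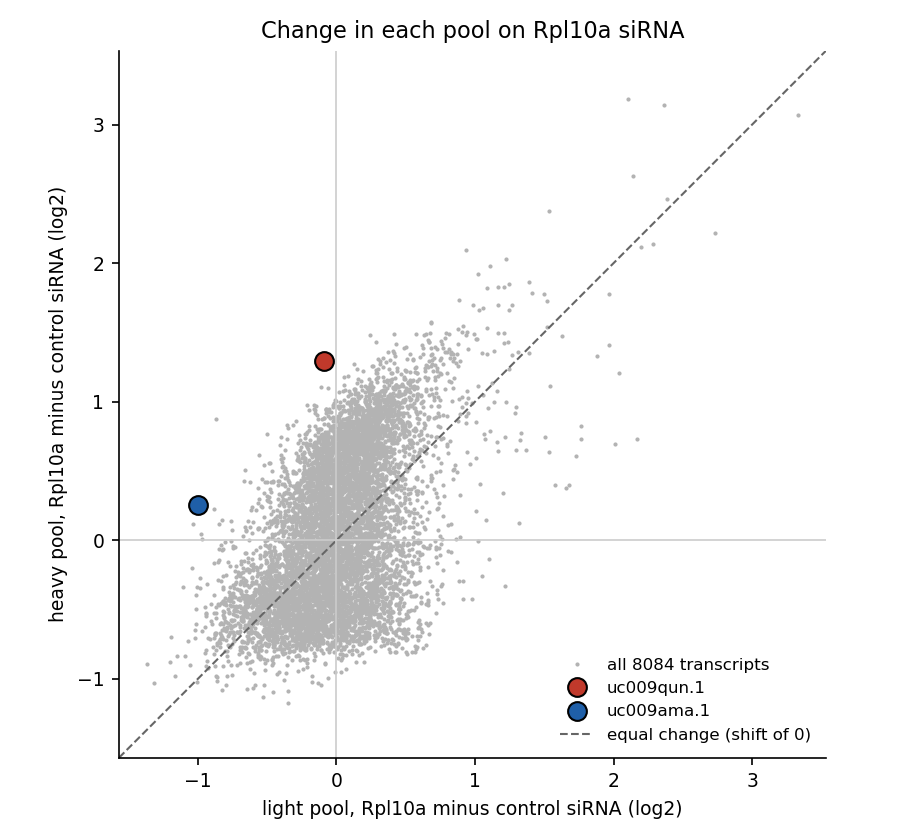
Log2 change with Rpl10a siRNA in the light pool (horizontal) and in the heavy pool (vertical) for all 8084 transcripts (grey), uc009qun.1 (red) and uc009ama.1 (blue); on the dashed line both changes are equal and the shift is 0. The red point lies above the line at a light change near 0 (−0.09 and 1.29), and the blue point to its left at a heavy change near 0 (−0.996 and 0.25).

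These directions did not turn under other scalings of the libraries. With library medians aligned, the heavy change of uc009qun.1 was 1.16 and the light change of uc009ama.1 was −1.02. With library totals made equal they were 1.40 and −0.94. Equal totals moved the median heavy change of all transcripts from 0.01 to 0.12 and aligned medians moved it to −0.12, and the small heavy change of uc009ama.1 was 0.36 and 0.12 under these scalings.

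Over the 8 RNA-seq libraries, the profiles of the 2 transcripts had a Pearson r of 0.52 with each other (log2 values). This is a description of libraries that share their gradient pools. The profile most like that of uc009qun.1, among 3328 transcripts at or above the median level with at least 0.5 times its SD, was that of uc008xxw.1 (r = 0.971), followed by uc009qbm.2 (r = 0.964). uc008xxw.1 held 28.1 and 28.7 in the control heavy libraries and 58.8 and 61.4 in those with Rpl10a siRNA, with light values between 46.4 and 58.9 throughout. Its control heavy pool, like that of uc009qun.1, lay below all other groups. uc009qbm.2 held 53.2 and 50.5 in control heavy libraries and 104.4 and 105.9 with Rpl10a siRNA, with light values from 80.2 to 92.4. The log2 shifts of these transcripts were 0.95 and 0.90, with heavy changes of 1.06 and 1.01 and light changes of 0.11 each. In all, 7 transcripts reached an r of 0.95 with uc009qun.1.

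For uc009ama.1, the most similar among 963 eligible transcripts were uc007bok.1 (r = 0.991) and uc009klm.2 (r = 0.989). uc007bok.1 went from 619.1 and 789.7 in the control light libraries to 346.9 and 333.3 with Rpl10a siRNA, while its heavy values stayed between 110.7 and 135.6. uc009klm.2 went from 238.5 and 213.0 to 134.9 and 119.7 in the light pool, with heavy values between 31.5 and 40.1. Their light changes were −1.04 and −0.82 and their shifts 1.16 and 0.75. In all, 128 of these 963 transcripts reached an r of 0.95 with uc009ama.1. The 7 for uc009qun.1 came from a different set of 3328, so the counts are not directly comparable. The measure looks only at the shape of a profile, and uc007bok.1 and uc009klm.2 shared with uc009ama.1 a heavy against light difference with control siRNA of similar size, −2.50 and −2.56.

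**Figure D4:**
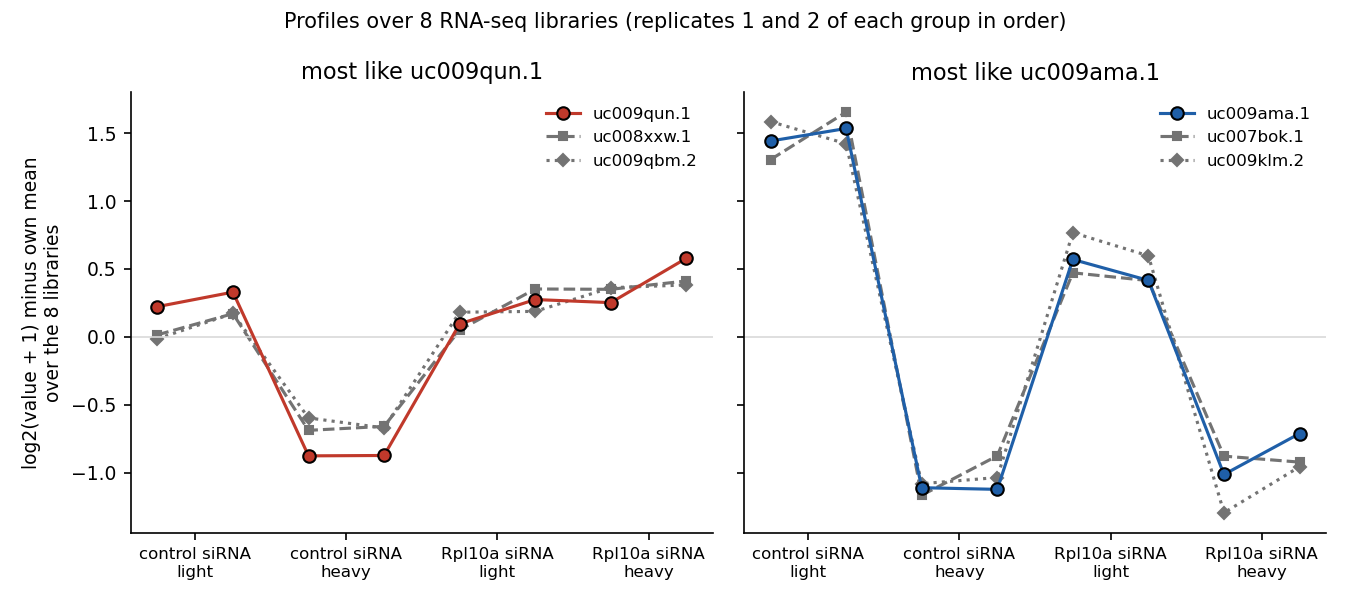
Log2(value + 1) minus each transcript's own mean over the 8 RNA-seq libraries, for uc009qun.1 (left, red) and uc009ama.1 (right, blue) with the 2 transcripts most like each in grey; the points of a group are its replicates and the lines only join points of 1 transcript. On the left only the control heavy libraries dip, and on the right the light pool comes down toward the heavy one with Rpl10a siRNA.

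The Ribo-Seq libraries did not enter the choice of the transcripts, so the captures can be tested. This arm of the design asked which mRNAs ribosomes with a given protein hold more or less often than ribosomes at large. Densities in RPKM are scaled by length and can be compared between transcripts. That of uc009qun.1 was between 154 and 303 times that of uc009ama.1 over the 12 libraries. uc009qun.1 had the highest density of all transcripts in each library of the 3xFLAG-Rpl10a and Rps25-3xFLAG lines and the second highest in each library of the Rpl22-3xHA line. uc009ama.1 ranked between 1927 and 3551 from the highest.

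In the 3xFLAG-Rpl10a line uc009qun.1 had 11743.0 and 12128.5 RPKM in the total libraries and 13028.6 and 14782.6 in the RPL10A IP. The IP libraries were both higher, as for 28% of all transcripts, by a log2 ratio of 0.22 (SE 0.14, 95% interval −0.09 to 0.52), which did not pass the test (limma adjusted p = 0.344). uc009ama.1 had 76.1 and 74.9 RPKM in total and 49.4 and 62.1 in the IP. Here both IP libraries were lower, as for 28.7% of transcripts, with a log2 ratio of −0.44 (SE 0.18, 95% interval −0.84 to −0.04; limma unadjusted p = 0.0354, adjusted p = 0.177). Of the 2 transcripts 0 were called at an adjusted p below 0.05 in limma, against 1.46% of the 8505 tested. An unadjusted p below 0.05, which 1 of them had, was reached by 24.3% of all transcripts in this fit. Neither interval is narrow: that of uc009qun.1 reaches up to 0.52 and that of uc009ama.1 down to −0.84.

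In the Rps25-3xFLAG line uc009qun.1 stood at 12001.7 and 12177.4 RPKM in total and at 12962.2 and 11979.4 in the RPS25 IP, with overlapping groups. Its log2 ratio was 0.04 (SE 0.07, 95% interval −0.12 to 0.21; limma adjusted p = 0.746). uc009ama.1 stood at 66.9 and 78.5 RPKM in total and at 63.6 and 50.5 in the IP, lower without overlap, as for 25.9% of transcripts. Its log2 ratio was −0.35 (SE 0.16, 95% interval −0.73 to 0.03; limma adjusted p = 0.270). In limma 0 of the 2 were called, against 0.0456% of the 8779 tested. At an unadjusted p below 0.05 there were 0 of the 2, against 20.9% of all.

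In the Rpl22-3xHA line uc009qun.1 had 10766.5 and 10705.2 RPKM in total and 10344.1 and 10478.1 in the RPL22 IP. The IP libraries were both lower, as for 31.4% of transcripts, but only to 97.0% of the total mean, a log2 ratio of −0.04 (SE 0.09, 95% interval −0.25 to 0.16; limma adjusted p = 0.801). uc009ama.1 had 37.3 and 35.3 RPKM in total and 34.2 and 37.1 in the IP, with overlapping groups and a log2 ratio of −0.03 (SE 0.10, 95% interval −0.25 to 0.20; limma adjusted p = 0.904). In limma 0 of the 2 were called and 0 had an unadjusted p below 0.05. Over all 8588 transcripts of this line limma called 0, or 0%, with 1734 (20.2%) at an unadjusted p below 0.05. If the total libraries were themselves captures, as their antibody label allows, these ratios would set captures against captures.

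**Figure D5:**
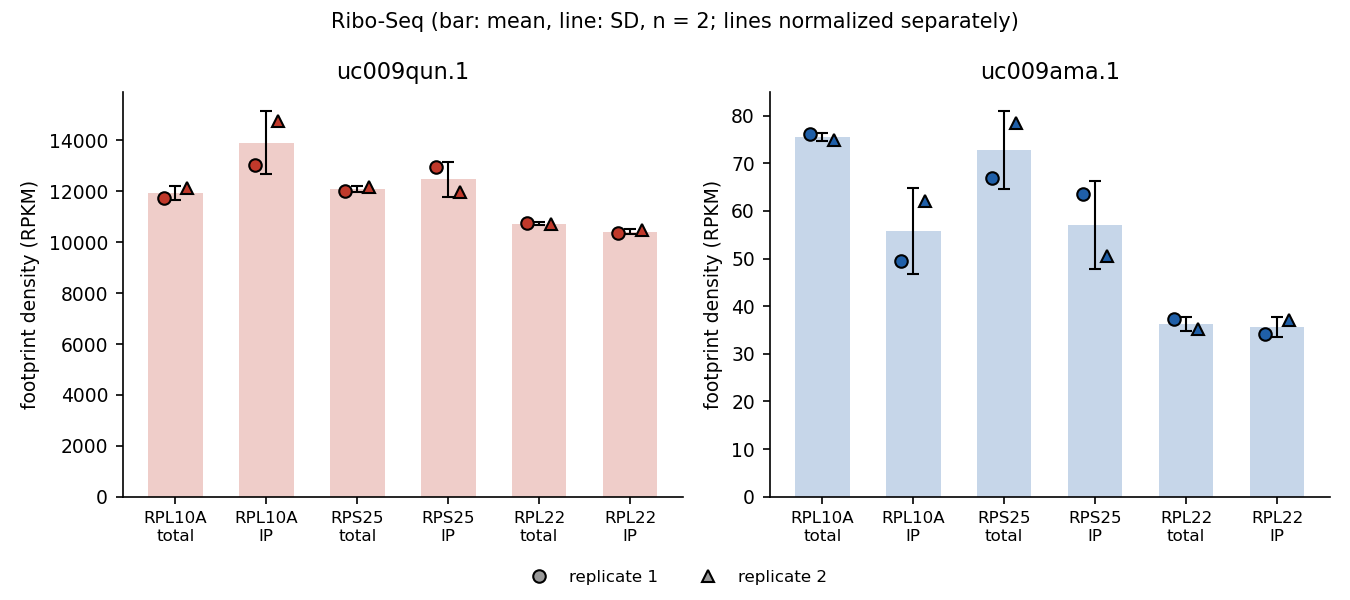
Footprint density in RPKM of uc009qun.1 (left) and uc009ama.1 (right) in total and IP libraries of the 3 tagged lines; bars are means, lines SD (n = 2) and symbols libraries, and the lines were normalized separately. The density of uc009qun.1 lies between 10344.1 and 14782.6 in every library, and that of uc009ama.1 is below its total in the RPL10A and RPS25 IP libraries and close to it in the RPL22 IP.

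The capture ratios were then compared between lines over the 7605 transcripts common to the tables. For uc009qun.1 the RPL10A ratio exceeded the RPL22 ratio by 0.26 on the log2 scale (SE 0.12, 95% interval −0.01 to 0.53; limma adjusted p = 0.218). For uc009ama.1 it lay below it by a log2 difference of −0.41 (SE 0.21, 95% interval −0.88 to 0.05; limma adjusted p = 0.257). In limma 0 of the 2 transcripts differed between these lines at an adjusted p below 0.05, against 2.33% of all, and 0 did at an unadjusted p below 0.05, against 23.8% of all. The RPL10A and RPS25 ratios differed by 0.17 (SE 0.12, limma adjusted p = 0.643) for uc009qun.1 and by −0.09 (SE 0.21, limma adjusted p = 0.901) for uc009ama.1, with 0.0657% of all transcripts called. The RPS25 and RPL22 ratios differed by 0.09 (limma adjusted p = 0.765) and −0.32 (limma adjusted p = 0.476), with 0.0263% called. A difference in capture between the lines was thus not shown for either transcript. Line, antibody and lysis buffer changed together between the RPL22 and the FLAG captures and cannot be told apart.

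Side by side, the capture ratios of uc009qun.1 were 0.22 (RPL10A), 0.04 (RPS25) and −0.04 (RPL22), and those of uc009ama.1 were −0.44, −0.35 and −0.03, none of which passed the test. The ratio of uc009ama.1 was thus about as low in the RPS25 as in the RPL10A capture. Among the transcripts with similar RNA-seq profiles, uc008xxw.1 and uc009qbm.2 had log2 ratios of 0.16 and 0.35 in the RPL10A IP. uc007bok.1 and uc009klm.2 had −0.21 and −0.62. In the RPS25 IP these 4 transcripts had 0.24, −0.01, 0.03 and −0.32, and in the RPL22 IP 0.13, −0.18, −0.19 and 0.13, so their signs followed no single order over the captures. The captures came from tagged lines and the fractions from wild-type cells under siRNA, so the values describe different cultures.

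Footprint densities on all ribosomes are given for each line as a description. The total libraries of uc009ama.1 averaged 75.5 ± 0.849 RPKM in the 3xFLAG-Rpl10a line, 72.7 ± 8.20 in the Rps25-3xFLAG line and 36.3 ± 1.41 in the Rpl22-3xHA line (SD, n = 2 each). Those of uc009qun.1 averaged 11936 ± 273, 12090 ± 124 and 10736 ± 43.3 RPKM. The tables were normalized separately, and the submitters' processing notes name STAR for the Rpl22-3xHA libraries but not for the other Ribo-Seq libraries. The total densities were therefore not tested across lines.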

How the data were processed

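The authors deposited 1 value per transcript and library: RPKM for the 12 Ribo-Seq libraries, per the file headers, and for the 8 RNA-seq libraries a signal that the file headers call RPM. The RNA-seq signal as deposited sums to between 943664 and 1067209 per library, so it was not taken as plain RPM. The submitters' processing notes name cutadapt, Bowtie2 and the mm10 build, and STAR for the RPL22 and RNA-seq libraries, without versions. Counter, annotation and any filter: not given in the sources used here. No whole-read step could be resolved in values rounded to 1 decimal, so no count test was run.

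Tests used limma 3.58.1 in R 4.3.3 on log2(value + 1), with a variance trend in the moderation, on every transcript of a table. The added 1 shrinks the fold change of low transcripts. Each capture was fitted on the 4 libraries of its line, differences between lines on 12 libraries and RNA-seq contrasts on 8. Tests were two-sided, with Benjamini-Hochberg adjustment over the whole table and calls at an adjusted p below 0.05. The fits were tested on simulated data. Likeness was the Pearson r of log2 values, and the 2 highest per transcript were named among those at or above the median level with at least 0.5 times its SD. The members, lists and settings were chosen with earlier results of these data known. Alternatives were pseudocounts of 0.1 and 5, other scalings, no variance trend, a minimum mean of 10, a replicate term, a fit of all 12 Ribo-Seq libraries, and leaving out each library. No replicate was a copy of another, as at most 1.53% of their values were identical.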

Additional observations from a re-analysis of the deposited data

How the results depend on the processing

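Of 260 values of the 2 transcripts under alternatives, 244 kept their direction and side of the threshold or moved by less than the replicate spread, 8 moved by more and 8 changed sign. No capture ratio was called under any alternative, with limma adjusted p from 0.0623 to 0.994. Sign changes were limited to ratios near 0. With library medians aligned, the RPS25 ratio of uc009qun.1 was −0.0040 (limma adjusted p = 0.979) and the RPL22 ratio of uc009ama.1 was 0.0034 (limma adjusted p = 0.988). Without single libraries these ratios ran from −0.013 to 0.10 and from −0.083 to 0.031, and the RPL10A minus RPS25 difference of uc009ama.1 from −0.25 to 0.073. The heavy against light difference with control siRNA was −1.09 for uc009qun.1 with medians aligned. For uc009ama.1 it was −2.54 with medians aligned, −2.66 with totals equal and −2.53 with a pseudocount of 5. Without single libraries the shift took values of 1.22 to 1.55 for uc009qun.1 and 1.10 to 1.40 for uc009ama.1.

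The replicate block, in designs of equal size, left every estimate as it was. Under it the RPL10A ratio of uc009ama.1, −0.44, had a limma adjusted p of 0.194, and the block changed no call of either transcript. Samples were not treated as paired by number, as no label ties them to a culture or day. Same-numbered deviations correlated with r from −0.00356 to 0.176 in the captures and from 0.526 to 0.622 in RNA-seq. Read by number, uc009qun.1 with Rpl10a siRNA was higher in the heavy than in the light library both times (10050.8 against 9016.6 and 12608.3 against 10210.9). Its light value was lower with Rpl10a than with control siRNA both times (9016.6 against 9846.8 and 10210.9 against 10604.8), although the groups overlap.

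The background counts moved more than the members. For the RPL10A capture, 124 calls became 202 with the replicate block, 38 without a variance trend, 190 with the minimum mean of 10, 1302 in the fit of 12 libraries and 0 without any 1 library. For RPS25, 4 became 0 without a trend, 199 in the fit of 12 and 0 to 1 without single libraries. For RPL22, 0 became 692 with the replicate block and 0 to 1 without single libraries. Between lines, RPL10A against RPS25 had 5 calls, with 0 under the block, 2 with medians aligned, 3 without a trend and 0 to 32 without single libraries. RPL10A against RPL22 had 177, with 70 under the block, 11 without a trend and 0 to 727 without single libraries. RPS25 against RPL22 had 2, with 0 under the block, 5 with the pseudocount of 5 or the minimum mean, 88 with totals equal, 1 without a trend and 0 to 156 without single libraries. The cause was not tested. Leaving out a library leaves a group of 1, assumed to vary like the others. Depth is unknown, so counting error could not be set apart.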
